A study of Mus musculus with 6 samples.

Results

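The cells described here are barcodes of a single-cell RNA data set from the mouse embryonic heart region that carried at least 5 UMIs of Tnnt2, at least 5 of Ttn and at least 10 of Myl2. A UMI (unique molecular identifier) marks 1 captured RNA molecule. Tnnt2 encodes cardiac troponin T, Ttn the giant sarcomere spring titin, and Myl2 the ventricular regulatory myosin light chain. Of 53362 barcodes, 35962 passed a filter of 2500 or more genes detected and no more than 10% mitochondrial UMIs, and 1549 of these met all 3 thresholds (4.31%, 95% exact binomial interval 4.10 to 4.52). They are called the Myl2-high cardiomyocytes below. They were compared with the 34413 other barcodes that passed the same filter, and with the 1773 barcodes among these that met the Tnnt2 and Ttn thresholds but not the Myl2 one. Since the cells were chosen on these counts, every contrast with the rest is a description and carries no test.

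Ventricular cardiomyocytes are the contracting cells of the lower heart chambers. In the embryo the ventricular wall consists of an outer compact layer, which divides quickly, and inner muscular ridges, the trabeculae, which mature earlier and conduct the impulse. Both chambers arise by local growth from a heart tube whose inflow, atrioventricular canal and outflow tract keep a slower, less differentiated muscle.

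The tissue was the microdissected cardiogenic region of wild type C57BL/6 embryos at mid-gestation (E10.5), which per the labels also holds non-cardiac mesoderm, ectoderm and endoderm. The labels describe 3 samples from mothers pretreated with vehicle and 3 from mothers pretreated with streptozotocin, a toxin of the insulin-producing cells. All fathers had normal glucose, vehicle-treated mothers were normoglycaemic and streptozotocin-treated mothers hyperglycaemic. The 6 barcode suffixes (libraries 1 to 6) could not be tied to the 6 samples, so the treatments were not compared and the matrix was treated as 1 pooled sample.

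Libraries 1 to 6 held 377, 278, 196, 189, 265 and 244 Myl2-high cardiomyocytes. Their shares of the filtered barcodes were 5.85%, 4.63%, 4.0%, 3.33%, 3.71% and 4.20% in that order. Library 1 lay highest and library 4 lowest, and their exact intervals (5.29 to 6.45% and 2.88 to 3.83%) did not overlap. Cardiomyocytes below the Myl2 threshold numbered 378, 367, 181, 258, 341 and 248, so that the ratio of high to low cells ranged from 0.733 in library 4 to 1.08 in library 3. Dissection and cell survival were not measured, and their part in these shares was not tested.

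**Figure D1:**
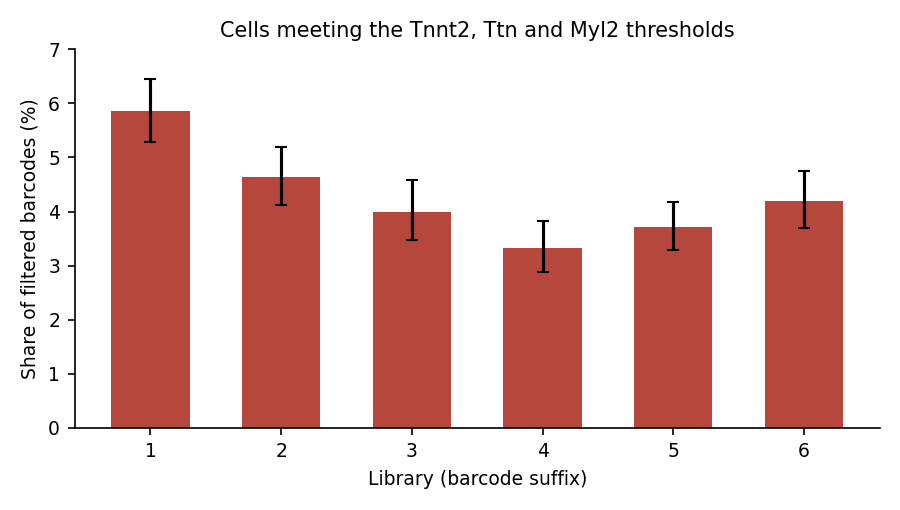
Share of filtered barcodes that met the Tnnt2, Ttn and Myl2 thresholds, in percent, for libraries 1 to 6. Bars start at 0 and error bars are 95% exact binomial intervals for counting error only. Library 1 is highest at 5.85% and library 4 lowest at 3.33%.

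The libraries held between 200462921 and 248426458 UMIs. The Myl2-high cardiomyocytes were deep cells, with a median of 53415 UMIs and 6983 detected genes against 32093 UMIs and 6167 genes in the other barcodes. Their median mitochondrial share was 3.35%, against 2.36%. In 338 of them (21.8%) the barcode sequence also occurred in another library. Other barcodes of at least 40886 UMIs, the lower quartile of the Myl2-high cells, shared sequences at 21.5%. The other copy held a median of 0.930% of the cell's UMIs, and 12 of 524 such copies passed the filter. By library, 2.04% (library 3) to 45.0% (library 4) of the cells shared a sequence. Values without these cells are given under the processing alternatives.

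Levels below are counts per 1000000 UMIs (CPM) of summed cells. Because each UMI tags a 3′ end, levels of different genes were not compared, and where a cell's UMIs of a pair of genes are set side by side, the share of such cells is read only between groups or libraries. Intervals cover counting error only, not differences between embryos. A gene was counted as higher or lower at a ratio of at least 2-fold with at least 10 CPM in the higher group.

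The rule genes themselves stood at 3799 CPM for Tnnt2, 3619 for Ttn and 3243 for Myl2. The other barcodes had 225, 163 and 6.65 CPM. Cardiomyocytes below the Myl2 threshold came close for Tnnt2 (3309 CPM) and Ttn (2636 CPM), and had 28.7 CPM of Myl2. Every Myl2-high cell also carried at least 10 UMIs of Myl7, the atrial-type regulatory light chain that the whole early heart tube makes. Cells with more Myl2 than Myl7 UMIs made up 6.10%, 7.19% and 9.69% of the Myl2-high cells in libraries 1 to 3. In libraries 4 to 6 they made up 1.06%, 1.13% and 0.820%, a share read here only between libraries. Hist1h1b and Gm42418 (below) also divided libraries 1 to 3 from 4 to 6, in these cells and in cardiomyocytes below the threshold. Whether the share follows that division was not tested.

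The ventricular list holds 6 genes the rule did not use, and all 6 were higher in the Myl2-high cells than in the other barcodes. In the same contrast 5 of the 8 atrial genes at 10 CPM were higher too and 2 lower, so it does not tell the chambers apart. Among all 9276 genes at 10 CPM in either group, 803 (8.66%) were higher and 1241 (13.4%) lower. Since the contrast is the one that chose the cells, nothing is read from these counts. Against cardiomyocytes below the Myl2 threshold, 5 of the 6 were higher, where 88 of 8779 genes (1.00%) were higher and 424 (4.83%) lower. Of that group, 1353 cells held at least 3 UMIs over Nr2f1, Nr2f2 and Sln, and only these are called atrial-marked. Against its 420 cells with fewer than 3 UMIs over Nr2f1, Nr2f2 and Sln, 3 of the 6 were higher (Irx4 20.6-fold, Hey2 10.0-fold and Myl3 2.75-fold), beside 3.29% of all genes, while Pln was at 1.63-fold, Myh7 at 1.36-fold and Lbh at 0.611-fold.

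Irx4, a homeodomain factor restricted to the ventricles, separated the cardiomyocytes most. It was at 63.1, 53.9, 70.3, 55.4, 56.0 and 53.2 CPM in libraries 1 to 6 of the Myl2-high cells, and at 1.21, 0.750, 1.08, 2.47, 0.514 and 1.30 CPM in the cardiomyocytes below the threshold. No library of one group overlapped the other, and the pooled ratio was 50.9-fold. After every cell was thinned to 5000 UMIs, 25% of Myl2-high cells held an Irx4 UMI (75.5% unthinned). The thinned share was 0.620% in cardiomyocytes below the threshold. It was 3.07% in 2797 epithelial cells (at least 5 Epcam and 2 Cdh1 UMIs, median 32066 UMIs) and 0.741% in all other barcodes.

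Hey2, a Notch-responsive repressor of atrial genes and a marker of the compact wall, was at 24.7, 22.8, 34.6, 25.5, 27.8 and 29.9 CPM against 1.54 to 4.18 CPM below the threshold (11.7-fold). Pln encodes phospholamban, the brake on the sarcoplasmic calcium pump. It reached 266 to 362 CPM across libraries, against 33.5 to 59.5 CPM (6.30-fold) and 2.56 to 5.51 CPM in the other barcodes. For Myh7, the beta myosin heavy chain, the ranges were 967 to 1425 CPM and 169 to 274 CPM (5.38-fold). Myl3, the ventricular essential light chain, ran from 4622 to 5005 CPM against 1202 to 2214 CPM (2.49-fold). The sixth gene, Lbh, a transcriptional cofactor, differed by 1.33-fold, at 179 against 134 CPM, and was higher in 5 of 6 libraries. Groups did not overlap for any of the first 5 genes, nor for genes outside the list such as Trdn (1.49-fold) and Srpk3 (1.74-fold). Nothing is read from the lack of overlap.

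**Figure D2:**
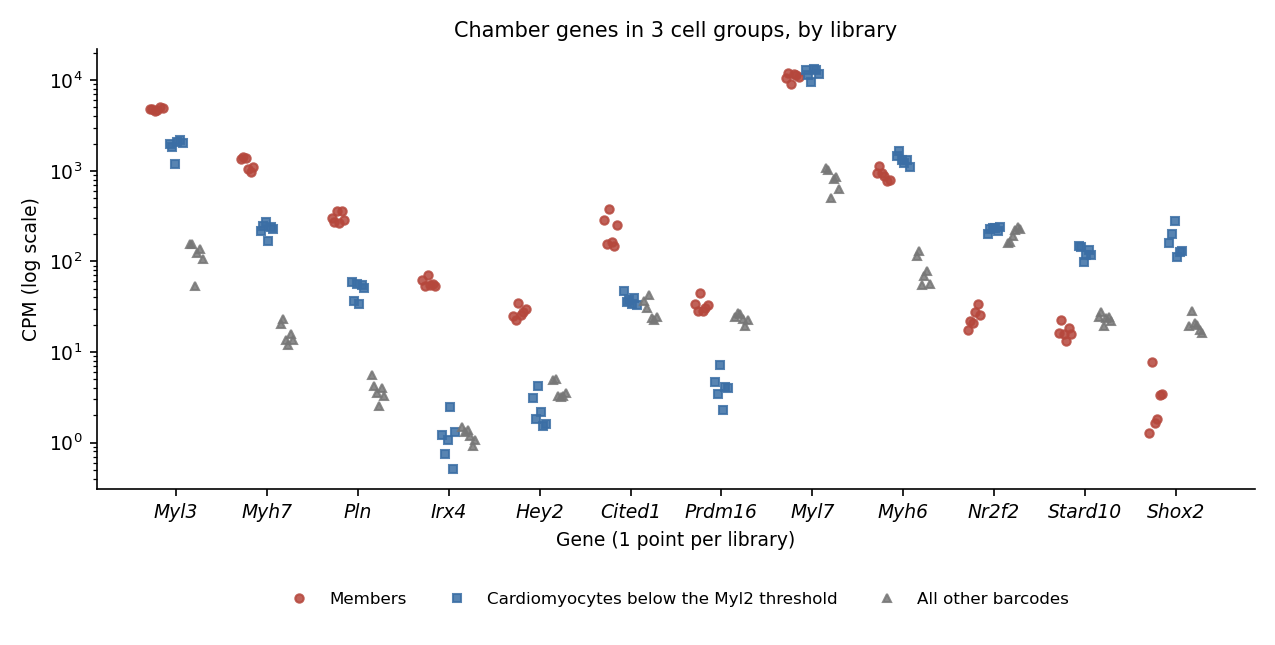
CPM on a log axis for 12 genes, 1 point per library, in Myl2-high cardiomyocytes (members, circles), cardiomyocytes below the Myl2 threshold (squares) and all other barcodes (triangles, which include the squares' cells). Irx4, Hey2 and Prdm16 separate the 2 cardiomyocyte groups upward, Nr2f2, Stard10 and Shox2 downward, while Myl7 lies near 10000 CPM in both.

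Of the 9 atrial genes, 8 of which reached 10 CPM, 4 were lower and 0 higher than below the threshold, beside 4.83% and 1.00% of all genes. Nr2f2 (COUP-TFII), the orphan receptor that specifies atrial identity, stood at 17.6 to 33.8 CPM in the Myl2-high cells and 199 to 239 CPM below the threshold. Nr2f1 was 7.73-fold lower, Stard10, a lipid-transfer protein, 7.61-fold lower and Angpt1, an angiopoietin, 2.46-fold lower, each in 6 of 6 libraries. The structural members differed less: Myl4, the embryonic atrial light chain, was at 6787 against 6564 CPM, and Myh6, the alpha heavy chain, at 918 against 1380 CPM. Against the 420 cells that were not atrial-marked, 4 of the 9 genes were higher (Myh6 at 2.23-fold, Angpt1, Kcnj3 and Nr2f2) and 0 lower, beside 3.29% and 9.37% of all genes. Nr2f1, Nr2f2 and Sln are on the list and were used to set those cells apart, so nothing is read from them. Myh6, Angpt1 and Kcnj3 turned direction, since they were lower than in the whole group below the threshold. Cell by cell, 1026 Myl2-high cells (66.2%) held more Myh7 than Myh6 UMIs, against 397 of 1773 below the threshold (22.4%).

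Sequences upstream of 4 of these genes are shown because Myl3, Pln and Irx4 belong to the ventricular list and were higher than in both comparison groups, while Myl7 is shared by both cardiomyocyte groups. Each is the 250 bases before the RefSeq start (build GRCm38.p6), 5′ to 3′ in the direction of the gene, with motif matches in capitals. The windows are Myl3 at chr9:110763428-110763677 (plus strand), Pln at chr10:53337436-53337685 (plus), Irx4 at chr13:73260247-73260496 (plus) and Myl7 at chr11:5898783-5899032 (minus).
Myl3: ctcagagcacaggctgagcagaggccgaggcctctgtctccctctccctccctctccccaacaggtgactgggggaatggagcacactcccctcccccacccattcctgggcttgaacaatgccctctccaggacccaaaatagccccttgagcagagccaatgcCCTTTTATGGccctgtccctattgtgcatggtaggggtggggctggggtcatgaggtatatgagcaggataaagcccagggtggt
Pln: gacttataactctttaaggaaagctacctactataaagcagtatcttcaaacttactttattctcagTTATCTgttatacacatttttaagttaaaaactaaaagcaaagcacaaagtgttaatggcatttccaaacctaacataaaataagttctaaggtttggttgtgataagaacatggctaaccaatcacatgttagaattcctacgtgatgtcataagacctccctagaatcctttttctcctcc
Irx4: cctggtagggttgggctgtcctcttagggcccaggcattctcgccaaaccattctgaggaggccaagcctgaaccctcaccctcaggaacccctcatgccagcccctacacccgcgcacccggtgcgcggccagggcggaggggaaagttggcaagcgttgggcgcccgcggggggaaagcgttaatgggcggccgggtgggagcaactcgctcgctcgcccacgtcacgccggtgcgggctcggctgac
Myl7: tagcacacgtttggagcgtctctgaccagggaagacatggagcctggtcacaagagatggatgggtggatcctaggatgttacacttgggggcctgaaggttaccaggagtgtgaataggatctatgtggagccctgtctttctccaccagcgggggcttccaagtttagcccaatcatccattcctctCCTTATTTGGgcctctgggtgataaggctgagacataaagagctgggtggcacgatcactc

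Both strands were searched for the CArG box of serum response factor, the MEF2 box, the GATA-type motif AGATAA, the NK2-type motif TNAAGTG and the T-box motif AGGTGT. The Myl3 window holds a CArG box at positions -85 to -76 from the start and the Myl7 window one at -61 to -52. The Pln window holds AGATAA on the reverse strand at -183 to -178. Of 27025 promoter windows of this length, 1.40% held a CArG box, 3.01% a MEF2 box, 10.3% AGATAA, 10.0% TNAAGTG and 12.0% AGGTGT. Among the 19 of 25 leading genes (below) with a window, 2 held a CArG box (Myl3 and Acta1) and 3 a MEF2 box (Myoz2, Kbtbd12 and Srpk3). AGATAA was in 4 windows (Pln, Adprhl1, Nppb and Smpx), TNAAGTG in 2 (Myh7 and Klhl31) and AGGTGT in 0. A match describes letters and not a bound site.

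Among the 25 genes with the largest ratios over the other barcodes, Myl2, Tnnt2 and Ttn aside, Pln led at 78.8-fold, followed by Myh7 at 74.5-fold and Irx4 at 48.3-fold. Sarcomere and Z-disc genes among them were Tcap (telethonin, 170 against 4.19 CPM), Myl3, skeletal actin Acta1 (977 against 25.9 CPM), Myoz2, Actn2 and Smpx. Membrane and calcium genes were the muscle caveolin Cav3 (38.4 against 0.930 CPM), the potassium channel subunit Kcng2 (120 against 3.97 CPM), the orphan receptor Gpr22 and triadin, Trdn. Abra, Hspb7, Klhl31, Tnni3k, Srpk3, Apobec2, Adprhl1, Kbtbd12, Nppb, Cdh16, Mov10l1 and Gm17428 completed the list. Relative to cardiomyocytes below the threshold, 16 of the 25 were at least 2-fold higher, beside 1.00% of all genes. The 25 were picked over barcodes that include these cells, so nothing is read from that count. Nppb, Hspb7, Mov10l1, Cdh16, Actn2, Apobec2, Srpk3, Smpx and Trdn were 1.49-fold to 1.96-fold higher. Against the 420 of these cells that were not atrial-marked, Cav3 (0.969-fold), Abra (0.845-fold) and Gm17428 (0.804-fold) were not higher. Pln, Myh7, Tnni3k, Klhl31, Hspb7, Mov10l1, Actn2 and Srpk3 were at 1.36-fold to 1.85-fold, short of the 2-fold call. The rest of the 25 were at least 2-fold higher, beside 3.29% of all genes, and nothing is read from that either.

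All 7 thick filament, all 11 thin filament and all 13 Z-disc genes were higher than in the other barcodes, beside 8.66% of all genes, with median log2 ratios of 3.98, 4.0 and 4.24, against -0.28 over all genes tested. Against cardiomyocytes below the threshold the medians were 0.09, 0.24 and 0.38, against -0.13 over all genes. There, beside 1.00% of all genes, only Myh7 and Myl3 of the thick filament, Acta1 of the thin filament, and Tcap and Myoz2 of the Z-disc were 2-fold higher. Cardiac alpha-actin Actc1 was at 11016 against 9337 CPM, and cardiac troponin I, Tnni3, at 1072 against 1055 CPM.

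Calcium and conduction genes differed more unevenly between the cardiomyocyte groups. Pln was the only one of 11 calcium genes (10 at 10 CPM or more) at least 2-fold higher, where 1.00% of all genes were. Its target, the calcium pump Atp2a2, was lower in 6 of 6 libraries (415 against 729 CPM), as were the release channel Ryr2 (762 against 934 CPM) and the pacemaker-type calcium channel Cacna1d (192 against 328 CPM). The exchanger Slc8a1 lay at 3758 against 3577 CPM. The pacemaker channel gene Hcn4 (10.7 against 36.1 CPM) was lower in every library. So was Shox2, a factor of the sinus node and venous inflow, at 1.29, 7.77, 1.64, 1.81, 3.33 and 3.45 CPM against 161, 199, 281, 113, 127 and 131 CPM (50.1-fold). Gja1, a ventricular gap junction gene, was 2.54-fold higher at 30.6 CPM, and Gja5, a gap junction gene of atria and trabeculae, 2.49-fold lower at 4.87 CPM and lower in 5 of 6 libraries.

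Compared with cardiomyocytes below the threshold, the 15 largest ratios were led by Irx4 and Hey2 and belonged to genes of several kinds. Prdm16, a zinc finger regulator of compact muscle, was at 28.0 to 44.7 CPM against 2.27 to 7.15 CPM, and Cited1, a transcriptional co-regulator, at 148 to 374 CPM against 33.4 to 47.2 CPM. The remaining genes included the phosphodiesterase Mpped2 (608 against 142 CPM), the sphingosine phosphate receptor S1pr1 (26.0 against 4.92 CPM), the pseudokinase Trib2 (25.4 against 3.85 CPM) and the proprotein convertase Pcsk6 (15.5 against 2.65 CPM). Irx2, Cystm1, Retreg1, Wdr93, 3425401B19Rik, Pln and Myh7 filled the list. The 15 smallest ratios began with Shox2, the peptide gene Calca (1.2 against 56.2 CPM), the matrix gene Smoc2 (1.2 against 52.9 CPM) and the calcium sensor Vsnl1 (11.8 against 358 CPM). They also held Upk3b, a marker of the epicardial covering (2.04 against 36.2 CPM), together with Csmd1, Kcnip1, Lin7a, Pvalb, St8sia1, Slc44a5, Pcdh17, 2610204G07Rik, Hpgd and Sh3gl3.

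The cardiomyocytes below the threshold were divided by a set UMI count, without regard to depth. With at least 3 UMIs over Nr2f1, Nr2f2 and Sln there were 1353 (atrial-marked), and with fewer there were 420. The other barcodes held Nr2f1 at 127 CPM and Nr2f2 at 201 CPM. After thinning, 67.6% of the epithelial cells held a Nr2f2 UMI, so the name describes the cut and not a cell type. In the 420, Myh7 was at 903 CPM and Pln at 187 CPM, against 82.5 and 18.5 CPM in the 1353, while Irx4 was at 2.86 and 0.786 CPM. The same 420 cells carried Isl1, a progenitor factor of the second heart field, at 346 CPM and Bmp4 at 440 CPM. Of the 8939 genes tested against them, 294 (3.29%) were higher and 838 (9.37%) lower in the Myl2-high cells. Against the 1353 atrial-marked cells, 116 of 8728 genes (1.33%) were higher and 402 (4.61%) lower.

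Cells just inside the Myl2 threshold differed from cells far above it. The 76 cells with 10 to 14 Myl2 UMIs had 8.61 CPM of Irx4, 1.28 of Hey2, 37.6 of Cited1, 433 of Rspo3 and 115 of Isl1. The 162 cells with 5 to 9 UMIs, just outside, had 5.33, 2.73, 37.3, 249 and 82.1 CPM of the same genes. In the 691 cells with 200 or more UMIs the levels were 71.0, 35.6, 322, 22 and 3.15 CPM. Shox2 separated the sides of the threshold, at 76.9 CPM just outside and 10.8 CPM just inside. Median depth moved with the Myl2 class, from 38105.5 to 63963 UMIs between the lowest and the highest class inside, and its part was not tested.

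**Figure D3:**
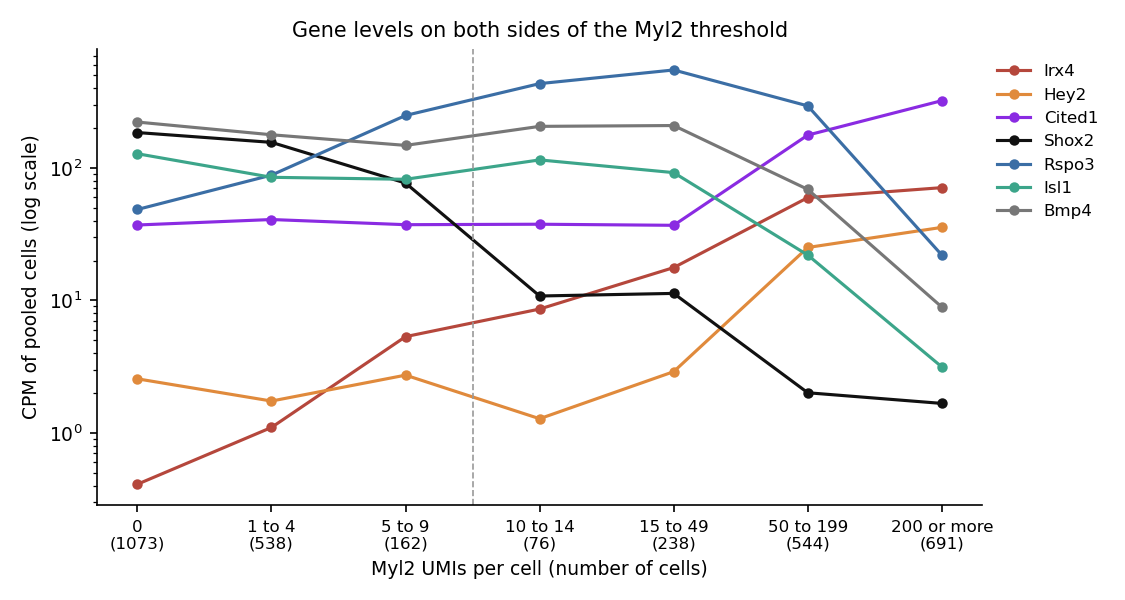
CPM of pooled cells on a log axis for 7 genes, by Myl2 UMIs per cell, with the number of cells in brackets and a dashed line at the threshold of 10 UMIs. Irx4 lies at 8.61 CPM just inside the threshold and 71.0 CPM in the highest class, while Rspo3 peaks at 549 CPM in the class of 15 to 49 UMIs and is at 22 CPM in the highest.

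A split by Rspo3, an R-spondin that amplifies Wnt signals, was added after these values were seen. After thinning to 5000 UMIs, 484 of the 1549 cells (31.2%, interval 28.9 to 33.6) held a Rspo3 UMI, against 17.8% of the cardiomyocytes below the threshold, 5.98% of all other barcodes and 1.79% of the epithelial cells. Unthinned, the shares were 41.1%, 32.9%, 18% and 8.04%. The shares in libraries 1 to 6 were 28.1%, 38.5%, 17.3%, 36.0%, 33.6% and 32.8%. Library 3 lay lowest, and its interval (12.3 to 23.4%) did not overlap that of any other library, the nearest being library 1 (23.6 to 32.9%). Rspo3 was read together with Nppa, the atrial natriuretic peptide gene. Both were detected in 23 thinned cells, Rspo3 alone in 461, Nppa alone in 566 and neither in 499. Without thinning, 136 cells (8.78%) held UMIs of both.

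A consistent direction was common in this split: of 8666 genes at 10 CPM or more, 39.8% were higher and 25.4% lower in cells with a Rspo3 UMI in 6 of 6 libraries, so the size of a difference is given for each gene named. The genes named were chosen after their values were seen. Means over libraries were 187 against 16.8 CPM for Bmp4, 176 against 14.9 CPM for Bmp2, 53.9 against 8.49 CPM for Tbx2 and 39.6 against 7.01 CPM for Tbx3. Bmp2 is the ligand, and Tbx2 and Tbx3 the repressors, that hold back chamber genes in the atrioventricular canal. Of the 10 other genes of the right-sided and outflow list, 7 were higher in 6 of 6 libraries, beside the 39.8% of all genes, Fgf10 was higher in 4, and Irx1 (2.02 against 12.7 CPM) and Irx2 (2.88 against 14 CPM) were lower in 6 of 6. Among the 7, Isl1 was at 72.5 against 9.10 CPM, Sema3c, a guidance cue, at 92.8 against 25.1 CPM, Wnt11 at 49.4 against 10.3 CPM, and the Nodal co-receptor Tdgf1 at 25.7 against 1.5 CPM. The imprinted genes Dlk1 (214 against 22.2 CPM) and Meg3 (849 against 124 CPM), and the membrane protein gene Itm2a (860 against 135 CPM), were also higher.

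Most genes of the compact and trabecular lists lay on the other side. Cells without a Rspo3 UMI had 909 against 48.3 CPM of Nppa, 293 against 25.4 CPM of Cited1 and 39.9 against 3.41 CPM of Gja1. Of the 6 compact genes, Hey2 (34.8 against 5.69 CPM), Ccnd2 (762 against 220 CPM), Ccnd1, Mycn and Prdm16 were higher without Rspo3 in 6 of 6 libraries. Tbx20, a T-box factor of the compact list, went the other way, at 185 CPM without against 382 CPM with Rspo3, as did Kcne1 (19.5 against 48.6 CPM) and Etv1 (7.96 against 22.3 CPM) of the trabecular list, each in 6 of 6. The ventricular list was divided. Myl3 (5783 against 4446 CPM) and Lbh (218 against 171 CPM) were higher in the cells with Rspo3 in 6 of 6 libraries, and Myh7 was at 1341 against 1158 CPM with the opposite direction in 1 library. Irx4, Hey2 and Pln (238 against 329 CPM) were lower there in 6 of 6. The atrial-type Myl7 was at 17607 against 8680 CPM. Irx4 was at 36.3 CPM in the cells with Rspo3, against 65.6 CPM without and 1.22 CPM in the other barcodes. The cells with Rspo3 were shallower, with a median of 42277.5 against 58799 UMIs, and the part of depth in these differences was not tested.

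**Figure D4:**
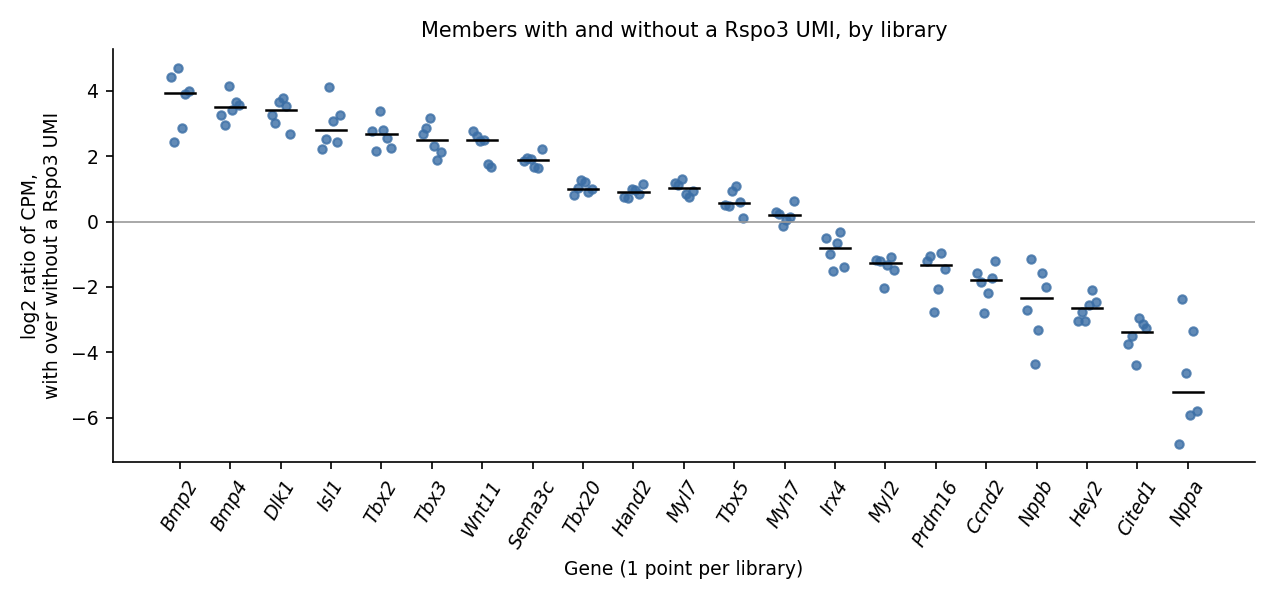
log2 ratio of CPM between Myl2-high cardiomyocytes with and without a Rspo3 UMI after thinning, for chamber and outflow genes, 1 point per library and a bar at the median over libraries. Bmp2, Bmp4, Isl1, Tbx2 and Tbx3 lie above 0 in all 6 libraries, Nppa, Cited1, Hey2 and Ccnd2 below 0 in all 6, and Myh7 on both sides.

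Trabecular and compact wall genes were read by ranking the cells of each library on their Nppa share and comparing the 514 cells of highest with the 514 of lowest share, the upper and lower classes. In 691 of the 1549 cells (44.6%) no Nppa UMI was found, so the lower class held only such cells, taken in file order among ties. Median depth was 61661 UMIs in the upper and 44705 UMIs in the lower class, and its part was not tested. The trabecular list, Nppa left out, was higher for Nppb (214 against 17.7 CPM), Gja5 (8.75 against 1.04 CPM), the trabecular growth factor Bmp10 (9.58 against 1.66 CPM) and Cited1 (402 against 87.8 CPM), each in 6 of 6 libraries. Etv1 and Kcne1 were lower in 6 of 6, and Irx3 was higher in 5. Summed, the compact list was at 0.883 times the level of the lower class in the upper one, against 4.06 times for the trabecular list. The compact ratio turned to 1.04 when cells with and without a Nppa UMI were compared. Its genes were divided: Hey2 (32.8 against 20.1 CPM), Mycn and Ccnd1 were higher in the upper class in 6 of 6 libraries. Tbx20 alone was lower in 6 of 6 (161 against 313 CPM), and Ccnd2 and Prdm16 differed in direction between libraries. The compact sum below the lower class is thus not shared by its genes. In this split 17.1% of all genes at 10 CPM or more were higher and 32.0% lower in 6 of 6 libraries. Gja5 and Bmp10 did not reach that minimum in either class, and rest on 24 and 39 UMIs in the lower one. Rspo3 was at 13.7 against 405 CPM in the same split.

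Restricted to the 913 cells with no Rspo3 UMI, upper and lower Nppa classes of 303 cells each gave another order for the 6 compact genes, all of which were lower in the upper class. Prdm16 was lower in the upper class at 30.9 against 53.6 CPM, Mycn at 41.3 against 65.3 CPM, Ccnd1 at 46.1 against 64.0 CPM and Ccnd2 at 481 against 1058 CPM, each in 6 of 6 libraries. Hey2 was at 32.6 against 42.3 CPM and Tbx20 at 150 against 201 CPM, each lower in 5 of 6. Hey2, Mycn and Ccnd1 thereby changed direction relative to the split over all cells, and the cell cycle marker Mki67 was at 75.9 against 97.2 CPM. Nppb (278 against 25.6 CPM), Bmp10 (10.7 against 3.62 CPM) and Gja5 (10.7 against 3.49 CPM) stayed higher in 6 of 6 libraries, as did Pln at 399 against 266 CPM, while Cited1 (473 against 199 CPM) was higher in 5 of 6. Etv1 and Kcne1, lower in the upper class over all cells, differed in direction between libraries here. In this split 5.62% of all genes were higher and 12.0% lower in 6 of 6 libraries. Depth was close in this split, at medians of 61193 and 56478 UMIs. This restriction was also added after the values were seen.

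Hand1, a helix-loop-helix factor of the left ventricle and outer curvature, was detected after thinning in 374 cells (24.1%). Library shares were 26.0%, 21.6%, 29.1%, 28.0%, 14.7% and 27.5%, lowest in library 5. Cells with Hand1 had more Cited1 (396 against 174 CPM), Irx4 (70.6 against 54.8 CPM) and Gja5 (8.28 against 3.70 CPM) in 6 of 6 libraries. Of the right-sided and outflow list they had less Irx1 (6.45 against 11.3 CPM), Irx2 (5.94 against 13.2 CPM), Sema3c (24.8 against 47.8 CPM) and Fgf8 (15.3 against 20.3 CPM). They also had less Pln (212 against 339 CPM), again in 6 of 6 for each. Irx1 and Irx2 had gone against most of that list in the Rspo3 split. Of all genes at 10 CPM or more, 7.14% were higher and 6.82% lower in 6 of 6 libraries, a minimum that Gja5 did not reach. Hand2, Isl1, Tdgf1, Fgf10, Rspo3, Wnt11 and Bmp4 differed in direction between libraries. Tbx5, the other left-sided factor, was at 49 against 43.3 CPM and higher in 5 of 6. Splitting by a Tbx5 UMI instead gave ratios of 1.01 for the left list and 0.988 for the right and outflow list.

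By UMIs of Mki67, Top2a and Cdk1, fewer Myl2-high cells than other barcodes counted as cycling, and more than among the cardiomyocytes below the threshold. With at least 2 thinned UMIs over Mki67, Top2a and Cdk1, 43.2% of the Myl2-high cells counted as cycling (interval 40.7 to 45.7). The shares were 41.4%, 39.9%, 43.4%, 47.1%, 46.8% and 42.6% in libraries 1 to 6, against 33.0% (24.9 to 37.1% by library) below the Myl2 threshold and 61.8% in the other barcodes. Library ranges did not overlap between the 3 groups. Of the 15 S phase genes, Tyms, Slbp and Uhrf1 were at least 2-fold lower than in the other barcodes, and of the 16 G2 and M phase genes Aurkb was, where 13.4% of all genes tested were lower. Nothing is read from these counts beside that share. The median log2 ratio over the other barcodes was -0.56 for the S phase genes and -0.29 for the G2 and M phase genes. Over all genes tested it was -0.28, so the G2 and M phase median lay near that of all genes. Over the cardiomyocytes below the threshold these medians were 0.41, 0.23 and -0.13. Thinned to 10000 UMIs, 56.7% of the Myl2-high cells counted as cycling, with no share of the other groups to set beside it. Ccnd2, the D-type cyclin of the compact wall, was at 625 CPM, against 279 CPM in the other barcodes and 183 CPM below the threshold.

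Within the Myl2-high cells, cycling cells had more Ccnd2 (757 against 481 CPM) and less of the cell cycle inhibitor Cdkn1c, p57 (1361 against 2004 CPM), in 6 of 6 libraries. All 7 thick filament genes were lower in the cycling cells in 6 of 6 libraries, as were 10 of 11 thin filament genes, Lmod2 being lower in 5, where 24.6% of all genes at 10 CPM or more were lower in 6 of 6. Most of these differences were small, such as 10285 against 11768 CPM for Actc1. The slow-muscle troponin Tnnt1 (112 against 253 CPM) and the stretch-responsive gene Ankrd1 (440 against 752 CPM) had the largest ratios among the contractile and Z-disc genes, and Smpx alone of these was higher in cycling cells in 6 of 6 libraries (458 against 384 CPM). Median depth was 65548 UMIs in cycling and 45542 UMIs in the other cells, and its part was not tested.

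Many energy metabolism genes were higher than in the other barcodes. Of 20 glycolysis genes 12 were higher, of 15 fatty acid genes 9, and of 23 genes of respiration and creatine use 16, where 8.66% of all genes tested were higher. None was lower, and none of them reached 2-fold at 10 CPM against the cardiomyocytes below the threshold as a whole, where 1.00% of all genes were higher and 4.83% lower. Against the 420 of these that were not atrial-marked, Slc2a1 (2.21-fold), Pfkp (2.5-fold), Tpi1 and Pgk1 of glycolysis and Cox6a2 (3.85-fold) and Cox7a1 of respiration were higher, beside 3.29% of all genes. The glucose transporter Slc2a1 was at 622, 643, 617, 628, 577 and 531 CPM against 85.4 CPM in the other barcodes and 352 CPM below the threshold. The phosphofructokinase isoform Pfkp (129 against 8.84 CPM), the muscle mutase Pgam2 (441 against 29.6 CPM), the fatty acid carrier Fabp3 (479 against 23.8 CPM) and the muscle carnitine transferase Cpt1b (37.2 against 2.48 CPM) had ratios between 14.6-fold and 20.2-fold. Muscle isoforms of complex IV were likewise high, with Cox6a2 at 509 against 25.1 CPM and Cox7a1 at 116 against 6.83 CPM. Muscle creatine kinase Ckm, at 3.60 CPM, was under the 10 CPM needed for a call. No gene of the respiration and creatine list had a log2 ratio over the other barcodes below 0.76.

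Among 24 cardiac transcription factors, 14 were higher and 3 (Irx3, Irx5 and Hey1) lower than in the other barcodes, beside 8.66% and 13.4% of all genes tested. Nkx2-5 was at 175 against 14 CPM, Hopx at 167 against 11.7 CPM and Myocd, the serum response factor partner, at 229 against 23.5 CPM. Relative to cardiomyocytes below the threshold, Irx4, Hey2, Prdm16 and Mycn were higher and Gata5 and Hey1 lower, beside 1.00% and 4.83% of all genes. Against the 420 of these that were not atrial-marked, 6 of 23 factors at 10 CPM were higher and 8 lower, beside 3.29% and 9.37% of all genes. Of 20 signalling genes, 6 were higher and 5 lower than in the other barcodes, beside the same 8.66% and 13.4%. The neuregulin receptor Erbb4 was at 1157 against 168 CPM and its partner Erbb2 at 17.6 against 7.78 CPM, while the ligand gene Nrg1 was at 6.24 against 55.6 CPM. Notch1 was at 1.49 against 15 CPM.

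**Figure D5:**
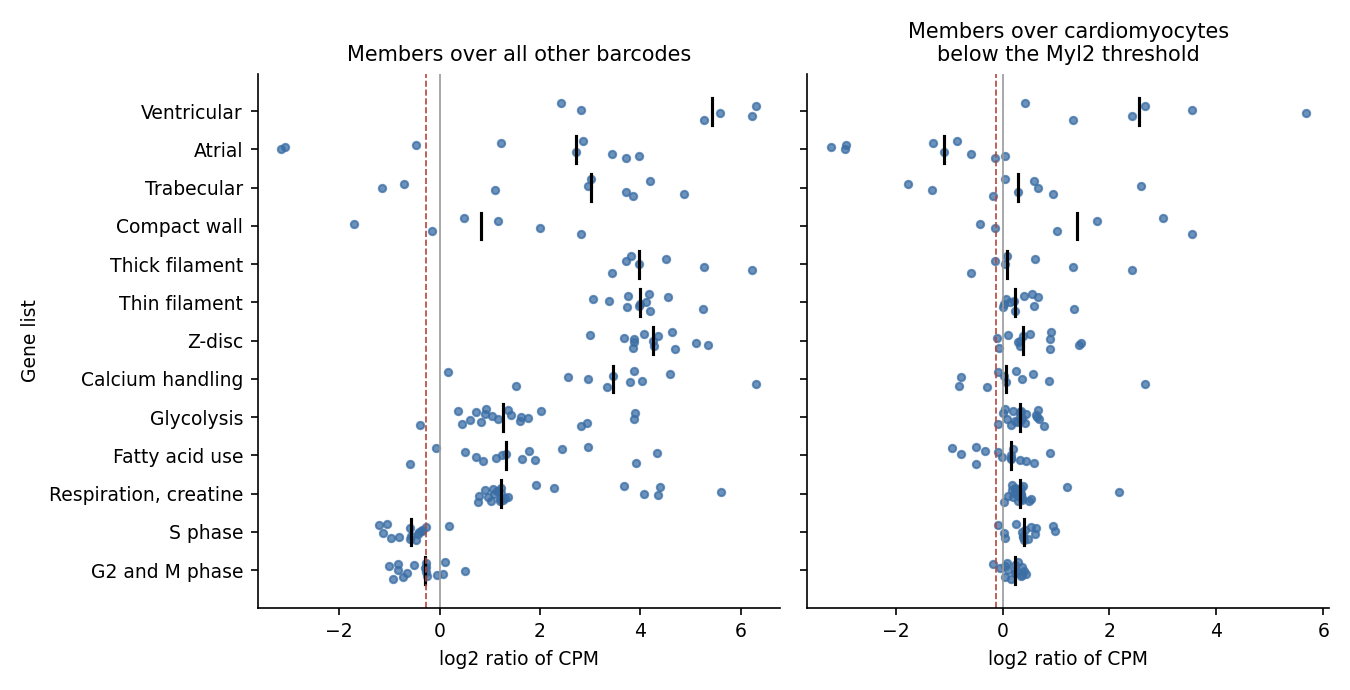
log2 ratio of CPM for every gene of 13 lists (1 point per gene), in Myl2-high cardiomyocytes over all other barcodes (left) and over cardiomyocytes below the Myl2 threshold (right). Black bars are list medians and the dashed line is the median of all genes tested (-0.28 left, -0.13 right). The thick filament median is 3.98 on the left and 0.09 on the right.

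Summed marker levels of the endothelial, epicardial and epithelial lists were below those of the other barcodes. Even so, 299 of the 1549 cells (19.3%) held at least 5 UMIs of an endothelial, epicardial or epithelial list, counted without regard to depth. Summed over its list, the endothelial level was 45.7 CPM (35.6 to 51.8 by library) against 234 CPM in the other barcodes, with Cdh5 at 0.785 CPM. The epicardial sum was 29.0 CPM (20.1 to 36.1) against 159, and the epithelial sum 10.1 CPM (6.31 to 15.6) against 170. In the cardiomyocytes below the threshold the sums were 101 CPM endothelial (85.4 to 120), 166 CPM epicardial (94.1 to 344) and 24.0 CPM epithelial (15.4 to 31.9), above the library range of the Myl2-high cells for the first 2 lists, and their part in the contrast with those cells was not tested. Ptprc of the myeloid list was at 0. Lyz2, the lysozyme gene listed for myeloid cells, was at 5.20 CPM against 0.626 CPM and higher in 6 of 6 libraries, with Tyrobp at 0.0114 CPM. Smooth muscle Tagln (1551 against 177 CPM) and Cnn1 (185 against 16.9 CPM), which the early heart also makes, were higher, and Pdgfrb was at 1.30 against 20.7 CPM. Hemoglobin genes had a median of 70.5 CPM per cell against 97.8 CPM in the other barcodes. Their summed erythroid list ran from 57.6 to 4353 CPM between libraries, and 5 cells (1, 3 and 1 in libraries 1, 3 and 5) had at least 1% hemoglobin UMIs. Without those 5 cells the list was at 80 CPM in place of 1092 CPM.

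Between libraries the Myl2-high cells were alike for most genes. Over 3011 genes at 50 CPM or more, the median ratio of the highest to the lowest library was 1.16, and 24 genes (0.797%) exceeded 2-fold. Hemoglobin genes varied most. Linker histone Hist1h1b was at 280, 303, 301, 61.3, 66.0 and 65.2 CPM, and Gm42418, which overlaps ribosomal RNA sequence, at 966, 1159, 1308, 307, 277 and 320 CPM. The same genes varied 5.45-fold and 4.64-fold in the other barcodes. Some genes varied more in the Myl2-high cells than elsewhere. Cited1 was at 288, 157, 374, 164, 148 and 249 CPM, a 2.53-fold range against 1.90-fold in the other barcodes, Dlk1 had a 3.01-fold range against 1.33-fold, and the immediate early gene Fos 3.13-fold against 1.25-fold. Library 3, which had the smallest share of cells with Rspo3, had the highest Cited1, Nppa (950 CPM) and Hey2 and the lowest Dlk1 (31.4 CPM) and Rspo3 (115 CPM). No treatment could be set beside these values.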

How the data were processed

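UMI counts of all 6 samples were deposited by the authors as 1 sparse matrix with gene and barcode lists. Reads were processed with Cell Ranger 5.0.0 against mm10, and CASAVA 1.8 and Seurat 4 are also named, per the submitters' processing notes. The labels' descriptions name a chromatin assay, while titles, library source and the 3′ kit name RNA, so the counts were treated as RNA. The 32285 genes and 53362 barcodes were used as deposited, and the replicate unit was 1 pooled matrix.

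Counts were summed per cell group and library and scaled to 1000000 UMIs. Intervals are exact (Poisson for CPM, binomial for shares and ratios), at 95%, for counting error only. Where splits are compared, CPM is the mean over 6 libraries. Thinning drew 5000 UMIs per cell without replacement (10000 as an alternative). No test, p-value or edgeR fit applied, since suffixes could not be tied to samples, as had been allowed for. Genes named are those of 32 lists (284 genes), the 25 largest ratios over the other barcodes (at least 10 CPM, higher in 6 of 6 libraries), and the 15 largest and 15 smallest over cardiomyocytes below the Myl2 threshold, with the same direction in every library with at least 50 cells of both. Some listed genes are not reported here. Members and lists were chosen with earlier results of these data known. Doublets were scored per library with Scrublet in scanpy 1.11.5 and, at 0.8% per 1000 cells, 1746 filtered barcodes (4.86%) were called. Of the Myl2-high cells, 102 (6.58%) were among those called. They were kept, and left out as an alternative. Scripts were tested on simulated data. Alternatives changed the filter, thresholds, depth, doublets, shared barcodes, libraries, weighting, call and split. Python 3.11.15, NumPy 2.4.6, SciPy 1.17.1 and pandas 2.3.3 were used. Promoter sequences are from RefSeq (GRCm38.p6).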

Additional observations from a re-analysis of the deposited data

How the results depend on the processing

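No paired analysis was possible because the suffixes carry no sample or replicate number and no test was run. Across 17 settings, the direction of all 55 ratios given for leading genes held. These genes had been chosen for large ratios with the same direction in every library, so the settings could hardly reverse them. Nothing is read from that count. The share of Myl2-high cells was 3.58% with at least 1000 genes and at most 20% mitochondrial UMIs, 4.77% with UMI thresholds 0.5 times as high (looser), 3.93% with doubled thresholds, 3.51% without cells holding at least 5 UMIs of an endothelial, epicardial or epithelial list, 3.66% without shared barcode sequences, and 3.97 to 4.49% with each library left out. Counts of genes higher and lower than in the other barcodes became 1264 and 2784 at 1.5-fold, 342 and 478 at 4-fold, 1336 and 3068 at a minimum of 1 CPM, and 428 and 367 at 50 CPM. Against cardiomyocytes below the threshold they became 285 and 1024, 14 and 123, 216 and 1274, and 33 and 114 in the same order. These follow from the call itself. The trabecular sum, upper over lower Nppa class, was 4.06, and 4.22 with looser thresholds, 3.90 without shared barcodes, 3.26 with 2 equal Nppa classes, 3.31 for cells with against without a Nppa UMI, and 3.80 to 4.39 with each library left out. The compact sum was 0.883, and 0.908 with looser thresholds, 0.822 with doubled ones, 0.959 with 2 equal Nppa classes, 0.833 to 0.947 with each library left out, and 1.04, the opposite direction, for cells with against without a Nppa UMI (the cause was not tested). The left list with over without a Hand1 UMI, which holds Tbx5 (1.13-fold) and Cited1 (2.27-fold, also on the trabecular list), was 2.05, and 1.97 without doublets, 2.18 without cells holding other lineage UMIs, 1.01 with Tbx5 in place of Hand1, 2.56 at 10000 UMIs, and 1.96 to 2.11 with each library left out. The right and outflow list was 0.795, and 0.890 with looser thresholds, 0.694 doubled, 0.769 without other lineage UMIs, 0.847 without shared barcodes, 0.988 with Tbx5, 0.830 at 10000 UMIs, and 0.659 (without library 4) to 0.841 with each library left out. Its largest difference in CPM was in Rspo3 (146 with against 198 without Hand1), which was higher with Hand1 in library 4 only. A sum of 6 outflow genes, chosen after they were seen to be higher and leaving out Irx1 and Irx2, which were lower, and Hand2 and Fgf10 (Isl1, Bmp4, Sema3c, Wnt11, Fgf8 and Tdgf1), with over without Rspo3, gave 6.07, and 6.41 at most 5% mitochondrial, 5.08 with looser thresholds, 5.74 doubled, 6.80 without doublets, 6.47 without other lineage UMIs, 6.89 without shared barcodes, 6.35 at 10000 UMIs, and 5.69 to 6.31 with each library left out. Cells with a Rspo3 UMI made up 31.2%, and 27.5% with doubled thresholds, 35.0% at 10000 UMIs and 29.7 to 33.3% with each library left out. Cycling cells made up 43.2%, and 46.0% with doubled thresholds, 37.5% without shared barcodes, 56.7% at 10000 UMIs and 42.4 to 43.9% with each library left out. Depth limits what can be read of genes near 1 CPM.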
